A study of Nothobranchius furzeri with 20 samples.

Results

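The 200 genes whose transcript levels differed most between libraries of the 10% rotenone group were examined in skin of Nothobranchius furzeri, the turquoise killifish, an annual fish with a short life. Rotenone blocks complex I of the mitochondrial respiratory chain, and its dose is given as a percentage of LC50, the concentration lethal to 50% of animals. All 20 libraries come from skin of male fish of the strain MZM-04/10p that were given rotenone, and no untreated fish are analysed here. They form 4 groups of 5 libraries, at 27 weeks of age with 1% of LC50 and at 9 weeks of age with 0.1%, 1% or 10%. The labels do not say that each library is a different animal, so the tests see spread between libraries, which may be technical.

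The members were chosen by their own values. Counts were scaled to counts per 1000000 reads of the library (CPM), and the SD of log2(CPM + 1) was taken over the 5 libraries of each group. Of 26739 genes in the count tables, 17060 had a mean of at least 1 CPM, and leaving out the 100 most abundant gave 16960. In 3022 of these (17.8%) the largest of the 4 SDs was that of the 10% group, and the 200 with the highest SD there are the members. Their SDs ran from 4.39 down to 1.93 on the log2 scale, and the first gene left out also had 1.93. High spread at 10%, and lower spread in the other groups, are therefore conditions of the choice and not results.

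A piece of fish skin holds epidermal and mucous cells, pigment cells, scale-forming cells, dermal fibroblasts, vessels, nerves and immune cells. In a bulk library all of these are measured together, so a difference between libraries of the same group can come from any of them. The files list genes by identifier alone, and 0 of the 26739 are found in the RefSeq name table of the species. No member can therefore be given a name or a role, the skin label could not be checked against markers, and marker genes of other cell types could not be looked up. More cells of a type and more RNA per cell cannot be told apart in such libraries.

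The libraries held 21770720 to 29017737 reads on genes, with 24066083 to 29017737 at 10%, and 20868 to 21932 genes had a read. At 10%, replicates 1 and 2 had 24066083 and 24811815 reads, 21155 and 21389 detected genes, and TMM scaling factors of 0.888 and 0.931. The other 3 libraries had 24208560 to 29017737 reads, 21141 to 21319 genes and factors of 0.877 to 0.914. Counting error was small for the members: it came to a median of 4.35% of their SD at 10%, and at most 6.53%. Of the 0.1% group, replicates 1 and 4 stood away from the rest of the series along principal component 1 of 17060 genes (-114.6 and -97.96, against -14.4 to 25.7 in the other 18 libraries).

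Each member's 5 values at 10% were sorted and divided at the largest gap between neighbours, which names the libraries in which that gene was high. This was done on log2(CPM + 1), and folds and log2 units between libraries are of CPM + 1 from here on. The added 1 makes them smaller than folds of CPM, most of all at low levels. The members fell almost wholly into 3 sets. There were 99 members high in replicate 1 alone, 83 high in replicate 2 alone and 15 high in both. For all 200 members the high libraries included replicate 1 or replicate 2, and for 0 members did they include replicate 3. No member had 4 high libraries and 1 low (0 of 200). The added 1 limits how far a low library can fall, so that count is partly set by the measure and the high SD asked for. The remaining libraries were not alike either. Over replicates 3 to 5 alone the members had a median SD of 0.74, against 0.18 for the 16960 genes they were chosen from. These libraries entered the SD that chose the members, so the wider spread is partly built in and is only a description. The lowest value was in replicate 3 for 118 members and in replicate 5 for 52.

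**Figure D1:**
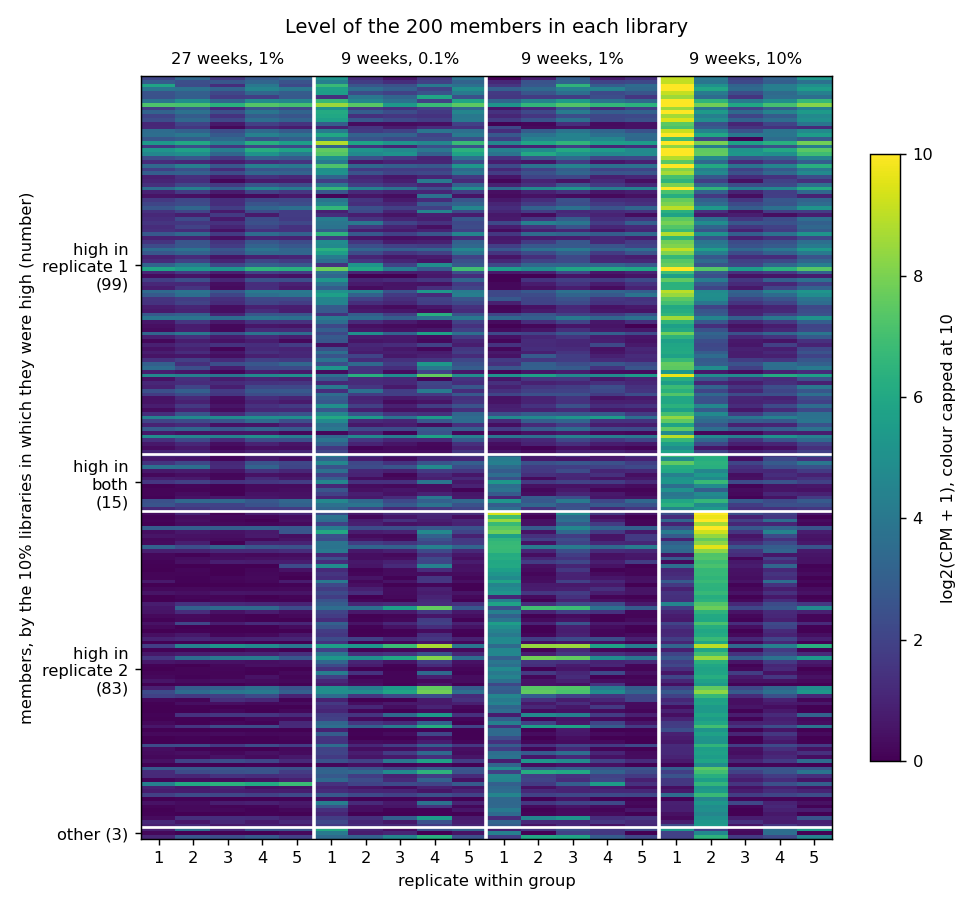
Level of each of the 200 members (rows) in each of the 20 libraries (columns, by group and replicate) as log2(CPM + 1), with colour capped at 10. The 99 members of the top set are bright in replicate 1 at 10%, the 83 of the lower set are bright in replicate 2, and part of the lower set is also bright in replicate 1 of the 9-week 1% group.

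The 99 members high in replicate 1 had a median level there of 176.8 CPM, against 9.71 CPM in replicate 2, 2.07 in replicate 3, 4.55 in replicate 4 and 10.7 in replicate 5. Together they took 4.38% of the reads of replicate 1, and 0.0589% to 0.248% of the reads of the other 4 libraries at 10%. Replicate 1 exceeded the next library by a median of 3.79 log2 units (1.76 to 5.23), and for 92 of the 99 it was 8-fold or more above every other library of the group. All 99 were higher in replicate 1 than in any of the other 19 libraries of the series. A few genes carried most of the reads: 8 of the 99 made up 50% of the set's share in replicate 1, and the most abundant alone took 0.615% of that library. The other 4 libraries were not equal either. In replicates 2 and 5 the set's share was 0.248% and 0.239%, above the 0.0589% and 0.106% of replicates 3 and 4.

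The 83 members high in replicate 2 had a median level of 76.3 CPM in that library, against 1.45 CPM in replicate 1, 0.537 in replicate 3, 1.45 in replicate 4 and 0.388 in replicate 5. They took 1.55% of the reads of replicate 2 and 0.0107% to 0.0318% of the reads of the other 4. The excess over the next library had a median of 4.43 log2 units (2.35 to 9.10), larger than in the first set, and was at least 8-fold for 75 of the 83. In 80 of the 83 replicate 2 was also the highest of all 20 libraries. Again 7 members made up 50% of the share. Outside replicate 2 many of these genes were near the limit of detection: 23 to 57 of the 83 reached 1 CPM in the other libraries at 10%.

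The 15 members high in both libraries had median levels of 32.8 and 39.3 CPM in replicates 1 and 2, and 1.198, 1.72 and 2.25 CPM in replicates 3, 4 and 5. The lower of the high pair exceeded the highest of the remaining 3 by a median of 2.87 log2 units. The 3 members outside the sets, named here because so few were left, were each high in another combination. Nfu_g_1_020877 was high in replicates 1, 4 and 5 (37.9, 11.54 and 45.4 CPM), Nfu_g_1_001097 in replicates 1, 2 and 4 (2.87, 26.1 and 11.2 CPM), and Nfu_g_1_018188 in replicates 2 and 5 (87.8 and 20.9 CPM).

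**Figure D2:**
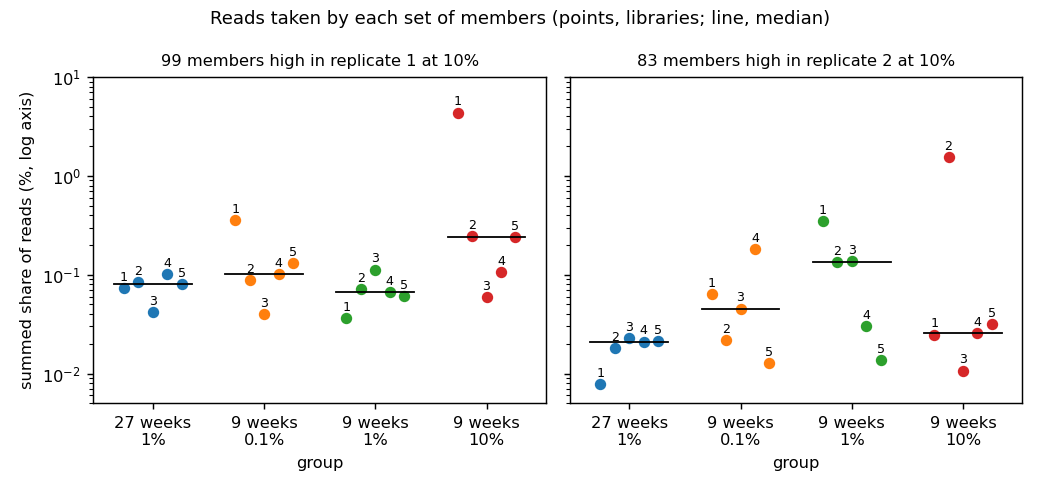
Summed share of library reads (%, log axis) taken by the 99 members high in replicate 1 and the 83 high in replicate 2 at 10%, for each library (points, numbered by replicate) with the group median (line). The first set reaches 4.38% and the second 1.55% in their own library at 10%, and the highest value elsewhere is 0.357% in replicate 1 at 0.1% for the first set and 0.347% in replicate 1 at 9 weeks and 1% for the second.

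Identifiers are given for the 2 members of highest SD in each of the main sets. Nfu_g_1_003041 (SD 2.78) had 558.9 CPM in replicate 1 at 10%, and 15.3, 2.60, 7.995 and 38.9 CPM in replicates 2 to 5. In the other groups it lay between 2.13 and 9.44 CPM at 27 weeks, with a median of 5.90. At 9 weeks it had 34.5, 1.43, 0.482, 1.97 and 13.4 CPM in replicates 1 to 5 at 0.1%, and 0.0428, 0.783, 6.91, 0.70998 and 1.47 CPM at 1%. At 0.1% as at 10% its highest values were in the libraries numbered 1 and 5, but the numbers follow the order of deposit and link no libraries of different groups.

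Nfu_g_1_007235 (SD 2.72) had 548.03 CPM in replicate 1 at 10%, and 13.7, 3.68, 6.96 and 11.9 CPM in replicates 2 to 5. It had 18.9, 2.49, 1.45, 2.96 and 8.03 CPM at 0.1%, and ran from 1.16 to 8.35 CPM at 9 weeks and 1% and from 4.33 to 8.67 CPM at 27 weeks. Its highest library outside the 10% group was again replicate 1 at 0.1%.

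Nfu_g_1_015055 had the highest SD of all members, 4.39. It reached 2978 CPM in replicate 2 at 10%, against 4.40, 4.42, 3.07 and 0.504 CPM in replicates 1, 3, 4 and 5. At 9 weeks and 1% it had 678.9, 0.348, 29.03, 2.35 and 0.505 CPM in replicates 1 to 5. At 0.1% it lay between 0.591 and 3.82 CPM, and at 27 weeks between 0.0854 and 1.16 CPM. A library at 1% thus held this transcript at a level above every library at 10% other than replicate 2.

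Nfu_g_1_022789 (SD 3.96) had 833.8 CPM in replicate 2 at 10%, and 1.33, 0.867, 1.96 and 0.0388 CPM in replicates 1, 3, 4 and 5. At 9 weeks and 1% it had 120.3 CPM in replicate 1 and 9.83 CPM in replicate 3, and at most 0.311 CPM in the other 3 libraries. At 0.1% it had 12.51 CPM in replicate 1 and at most 0.985 CPM elsewhere, and at 27 weeks at most 0.299 CPM. The order of high libraries at 1%, replicate 1 and then replicate 3, was that of Nfu_g_1_015055.

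Whether genes that vary together at 10% also vary together elsewhere was examined in the 15 libraries of the other groups, whose values entered the choice of members through the upper limit on the SD and through the mean CPM over all 20. Over these 15 libraries 20 members had a mean under 1 CPM, so they met the minimum through their 10% values. Pearson r was computed for pairs of members on log2(CPM + 1) with each group's mean removed. Among pairs of the 99 members high in replicate 1 the median r was 0.76, and 65.5% of 4851 pairs had r over 0.5. Among pairs of the 83 members high in replicate 2 the median was 0.83, with 74.99% of 3403 pairs over 0.5, and among the 15 high in both it was 0.75. Between the first set and the second the median was 0.01, with 2.53% of 8217 pairs over 0.5. For all pairs of the 17060 genes with a mean of at least 1 CPM it was 0.12, with 17.7% over 0.5. These are descriptions over pairs that share the same 15 libraries, depths and scaling, and no p-value belongs to them.

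**Figure D3:**
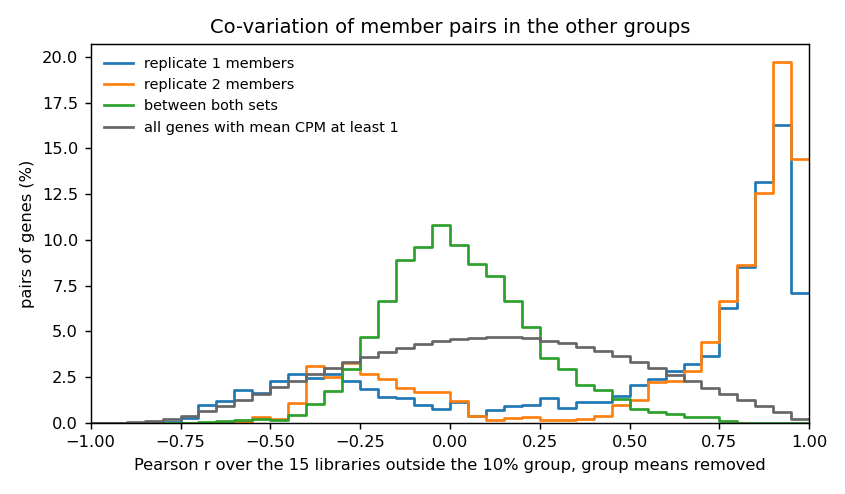
Distribution of Pearson r for pairs of genes over the 15 libraries outside the 10% group after removal of group means, as a percentage of pairs in each of 40 bins. Pairs within either set pile up near 1 with a smaller hump below 0, pairs between the sets centre on 0.01, and all genes with a mean of at least 1 CPM centre on 0.12.

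The medians were lower when a leading library was left out. Without replicate 1 of the 0.1% group the median r in the first set was 0.59, and without replicate 1 of the 9-week 1% group that of the second set was 0.57. Between the sets the median was -0.23 without replicate 1 at 0.1% and 0.42 without replicate 1 at 9 weeks and 1%. Within groups r rests on 5 libraries, and no value over all genes is given beside it, so no trait of the members can be read from it. The first set had a median r of 0.73 at 27 weeks, 0.86 at 0.1% and 0.59 at 1%. The second set had 0.74 at 0.1% and 0.93 at 1%. At 27 weeks it had 0.13, but there the median level of its members was 0.190 to 0.411 CPM and 4 to 14 of the 83 had no read.

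The first set reached its highest median level outside the 10% group in replicate 1 at 0.1%. Its 99 members had a median of 13.3 CPM there, against 1.98, 1.22, 2.56 and 4.83 CPM in replicates 2 to 5 of that group. In it 80 of the 99 (80.8%) were at least 2-fold above the median of the other 4 libraries, where 16% of the 17060 genes were. Replicate 5 at 0.1% followed with 43 of the 99 (43.4%), against 0.715% of all genes, and replicate 3 at 9 weeks and 1% with 31 (31.3%), against 3.68%. Across the 99 genes the size of the excess in replicate 1 at 0.1% ranked little like that in replicate 1 at 10% (Spearman rho across genes 0.14, a description). The first set was thus above its group's usual level in several libraries, but in none outside the 10% group did its median pass 13.3 CPM, against 176.8 CPM in replicate 1 at 10%.

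The second set stood out in replicate 1 of the 9-week 1% group. Its median was 16.4 CPM there, against 0.653, 1.68, 0.799 and 0.413 CPM in replicates 2 to 5. In that library 71 of the 83 members (85.5%) were at least 2-fold above the median of the other 4, where 2.17% of all genes were. Spearman rho across genes with the excess at 10% was 0.63 here, a description. The members were chosen on the excess at 10%, and its range differed between the sets. Over the median of the other libraries at 10% it was 3.48 to 5.76 log2 units in the first set and 4.14 to 9.31 in the second. The rho values of the sets therefore cannot be compared. Of the 17060 genes, 44 were higher by 8-fold or more in CPM + 1 in replicate 1 at 9 weeks and 1% than in any other library of its group. Of those 44, 39 are members, 36 of them in the second set. In replicate 1 at 0.1% 50 of 83 members of the second set (60.2%, against 16% of all genes) were at least 2-fold above the median of the other 4. The 15 members high in both libraries at 10% had medians of 7.55 CPM in replicate 1 at 0.1% and 10.49 CPM in replicate 1 at 9 weeks and 1%, and at most 2.61 CPM in the other 13 libraries outside the 10% group.

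Each set held a smaller subset that varied differently, described after the values were seen. Each member was compared with the median of the rest of its set over the same 15 libraries. The split used the values described next, so unlike high libraries in the subsets of a set are built in and are not results. Of the 99, 83 followed that median (median r 0.94) and 16 ran against it (r from -0.59 to -0.0092). The 16 had a median of 91.5 CPM in replicate 1 at 10% and 1.07 to 4.23 CPM in the other 4 libraries there. Outside the 10% group they were highest in replicate 4 at 0.1%, with 19.503 CPM against 1.55 CPM in replicate 1 of that group, while the 83 had 1.73 CPM in replicate 4 and 16.52 CPM in replicate 1. For 14 of the 16 replicate 4 was the highest library at 0.1%, and for 81 of the 83 it was replicate 1.

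The second set likewise held 72 members that followed its median (median r 0.95) and 11 that ran against it (r from -0.25 to -0.0044). The 72 were low everywhere but in a few libraries, with a median of 73.9 CPM in replicate 2 at 10%, 21.2 CPM in replicate 1 at 9 weeks and 1%, 3.09 CPM in replicate 1 at 0.1%, and at most 1.44 CPM in the other 17 libraries. The 11 reached 125 CPM in replicate 2 at 10%, and 2.53 to 13.6 CPM in the other 4 libraries there. They were also at 86.3 CPM in replicate 4 at 0.1% and at 72.8 and 60.9 CPM in replicates 2 and 3 at 9 weeks and 1%, but at 4.11 CPM in replicate 1 of that group. The median of the 11 was 0.834 to 9.34 CPM at 27 weeks. These medians do not hold for each gene: Nfu_g_1_005947, named after its values were seen, had 1.68 to 6.12 CPM at 0.1% and 19.4 to 112.9 CPM at 27 weeks. Nfu_g_1_018188, outside the sets, had the same high libraries, with 78.4 CPM in replicate 4 at 0.1% and 62.9 and 55.9 CPM in replicates 2 and 3 at 9 weeks and 1%.

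**Figure D4:**
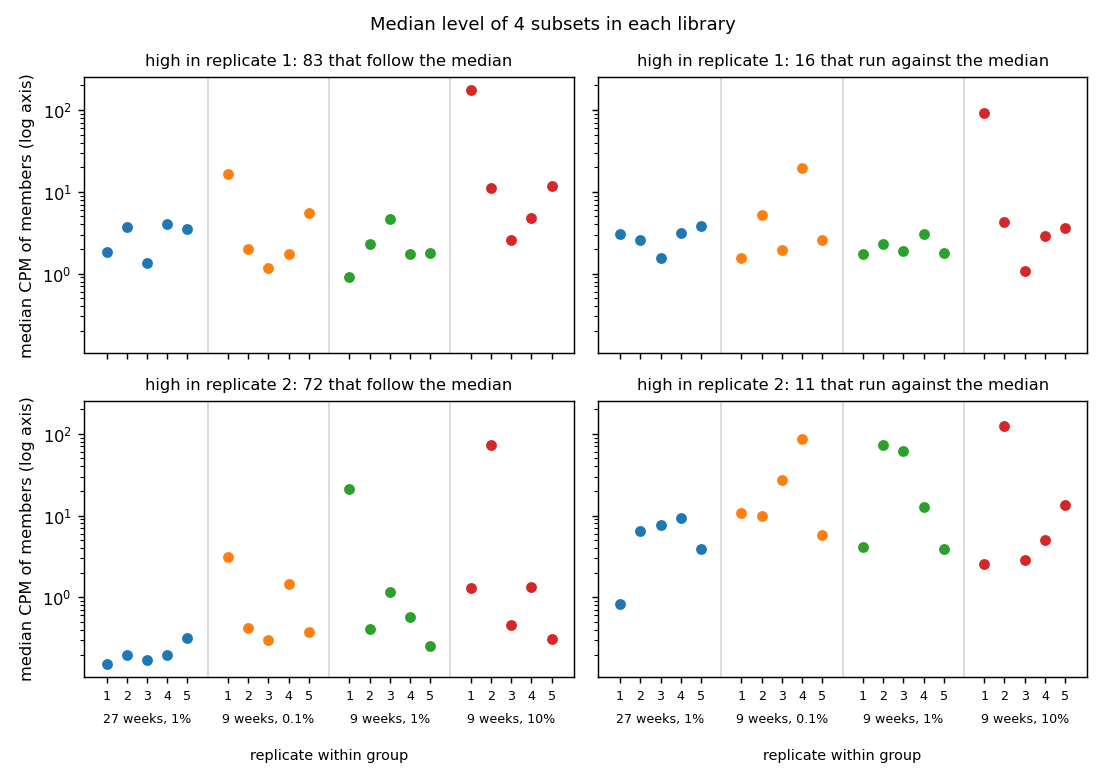
Median CPM (log axis) in each library of the members that follow the median of their set over the other 15 libraries (left) and of those that run against it (right), for the sets high in replicate 1 (top) and replicate 2 (bottom) at 10%. The highest library outside the 10% group is replicate 1 at 0.1% for the 83 and replicate 4 at 0.1% for the 16. It is replicate 1 at 9 weeks and 1% for the 72, and replicate 4 at 0.1% for the 11. The split was made on these 15 libraries, so unlike high libraries within a set are built into it.

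The rule keeps only genes whose largest SD is at 10%, which leaves out genes more variable at 0.1%. Without that condition 192 of the 200 were chosen again, so it changed few of the members. Genes raised in replicates 1 and 4 of the 0.1% group together were mostly other genes. The overlap is a description, since members were chosen by their SDs and genes with a larger SD at 0.1% than at 10% could not be members. Of 324 genes that in both exceeded the remaining 3 libraries at 0.1% by 8-fold or more, 1 is a member. That is 0.309% of that list and 0.5% of the members, where the members are 200 of the 16960 genes they were chosen from. Members raised in replicate 1 alone or in replicate 4 alone cannot be on that list. The shared gene is Nfu_g_1_008172, named because it is alone, with 27.8 and 19.8 CPM in these libraries and 138.9 CPM in replicate 2 at 10%.

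The same rule applied to the other groups gave sets of another shape. At 0.1% the 200 genes of highest SD had a median SD of 2.69, and 193 of them were high in replicates 1 and 4 together. At 9 weeks and 1% the median SD was 1.33, and at 27 weeks 0.912, against 2.25 at 10%. Genes high in 1 library alone made up 182 of the 200 at 10%, against 47 at 27 weeks, 6 at 0.1% and 45 at 9 weeks and 1%. Each gene counts only in the group of its largest SD, so these numbers are partly set by the rule. Of the 44 genes 8-fold or more higher in replicate 1 at 9 weeks and 1%, 39 are members at 10% and could not count at 1%. Over all 17060 genes, 154 in replicate 1 at 10% and 103 in replicate 2 exceeded every other library of the group by 8-fold or more, where replicates 3, 4 and 5 had 21, 0 and 0. In the other groups the highest number was the 44 of replicate 1 at 9 weeks and 1%. In CPM + 1 no gene was as far below the other 4 in any library at 10% (0 of 17060 in each). The added 1 hides falls to low levels, so larger ratios of CPM do occur. Nfu_g_1_022789, for example, had 0.0388 CPM in replicate 5 at 10% and at least 0.867 CPM in the others. On the second principal component of all 17060 genes replicates 1 and 2 at 10% lay at 67.8 and 49.98, and the next library at 20.6. With the members taken out they lay at 42.4 and 33.2, and replicate 3 at 0.1% lay between them at 33.8.

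Comparisons of groups were made with edgeR's quasi-likelihood test over all genes, with Benjamini-Hochberg adjustment (adjusted p under 0.05). Between 27 and 9 weeks at 1%, 0 of 191 members tested passed, where 4.49% of 18473 genes did (2.08% higher and 2.4% lower at 27 weeks). An unadjusted p under 0.05 was found for 60 of the 191 members, against 23% of all genes. DESeq2 called 13 members, all lower at 27 weeks, and 10.9% of all genes, but gave 120 of the 191 members no adjusted p. Members of the second set had a median log2 difference of -4.01, below 0 for all but 1 of 75 tested, and 12 of them did not overlap between the ages (5.66% of all genes did not). The 10% libraries take part in the filter on low counts, and members low in both ages can pass it through them, so these counts cover genes admitted by their 10% values. With the 10 libraries of both ages alone 43 of the 83 could be tested, with a median of -3.07. The first set had a median of 0.16 over the 15 libraries, and all genes -0.02. For Nfu_g_1_015055 the means were 0.661 ± 0.488 CPM at 27 weeks and 142.2 ± 300.3 CPM at 9 weeks (SD, n = 5 each; log2 difference -7.81, SE 2.80, edgeR adjusted p = 0.114). Without replicate 1 at 9 weeks the median of the second set was -1.82, and 0 members passed. All libraries of a fit share 1 estimate of the spread per gene, and members were chosen for a wide spread at 10%. With replicates 1 and 2 at 10% left out of the fit, 23 of 192 members passed, where 5.57% of all genes did, in either direction. All 23 were lower at 27 weeks, and 22 of them are in the second set. How far these calls rest on replicate 1 at 9 weeks was not tested.

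Between 1% and 0.1% at 9 weeks, 0 of 197 members tested passed, where 8.43% of 18808 genes were called higher at 1% and 10% lower. An unadjusted p under 0.05 was found for 13 members, against 31.8% of all genes. DESeq2 called 1 member (Nfu_g_1_009837, named because it was alone) and 22.8% of all genes, and gave 92 of the 197 members no adjusted p. The groups were free of overlap for 0 members and for 7.93% of all genes. The authors deposited the 0.1% libraries in a separate count table, so dose and table cannot be told apart here. The first set had a median log2 difference of -1.29 and the second of 1.75, against -0.04 over all genes. Without replicate 1 at 1% the median of the second set was -0.45, and without replicates 1 and 4 at 0.1% that of the first set was -0.62. With replicates 1 and 2 at 10% left out of the fit 6 members of the first set were called lower at 1% and 6 of the second higher, 12 of 198, where 19.1% of all genes were called. The 10% libraries take part in the filter on low counts here too, so the members tested include genes admitted by their 10% values. With the 10 libraries of both doses alone 168 members could be tested and 1 was called, where 6.42% of all genes were. The median was then -1.23 for 94 members of the first set and 1.56 for 58 of the second.

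Between 10% and 1% at 9 weeks the values that chose the members enter the contrast, so the counts only describe the set. Of 191 members tested 87 were called higher at 10% and 0 lower, where 9.11% of 18473 genes were called (4.22% higher and 4.88% lower), and 109 had an unadjusted p under 0.05, against 25.6% of all genes. Of the first set 85 of 98 tested were called, with a median log2 change of 4.27, and of the second 0 of 75, with a median of 1.66 (4 had an unadjusted p under 0.05). DESeq2 called 34 of the first set, 0 of the second and 14% of all genes. It gave no adjusted p to 64 of the 98 and 56 of the 75. Nfu_g_1_003041 averaged 124.7 ± 243.1 CPM at 10% and 1.98 ± 2.80 CPM at 1% (SD, n = 5 each; difference of 6.24 log2 units with SE 1.46, adjusted p = 0.0216 by edgeR). Nfu_g_1_015055 averaged 598.03 ± 1330 CPM at 10% and 142.2 ± 300.3 CPM at 1% (SD, n = 5 each; difference of 2.21 log2 units with SE 2.10, adjusted p = 0.542 by edgeR), replicate 1 at 1% also being high. The groups did not overlap for 1 member, against 12.8% of all genes. It is Nfu_g_1_000910, named because it was alone, with 316.7, 16.8, 3.51, 4.55 and 15.98 CPM at 10% and at most 2.65 CPM at 1% (difference of 5.88 log2 units with SE 1.18, adjusted p = 0.0117 by edgeR).

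Without its leading library the first set kept part of the difference. All 5 libraries at 10%, and the limit on the SD at 1%, chose the members, so this too only describes the set. With replicate 1 at 10% left out the median log2 change of that set was 1.74. Then 40 of 98 members were called higher (5.7% of all genes were called, in either direction). The call for Nfu_g_1_003041 was then lost (log2 change 3.26, edgeR adjusted p = 0.0517), as was that for Nfu_g_1_007235 (1.33, adjusted p = 0.0862). With replicates 1 and 2 both left out the median was 1.37 and 3 members were called (2.11% of all genes): Nfu_g_1_012082, Nfu_g_1_000910 and Nfu_g_1_005173, named because they were few. The second set had a median of -2.06 without replicate 2 at 10%. When just these 2 groups, 10 libraries, were fitted, 0 of 189 members were called, where 2.59% of all genes were. Counts of called members also depended on the 1% libraries, with 30, 9, 14 and 41 called without replicates 1, 2, 4 and 5 at 1%. In the same fits 4.65%, 3.44%, 3.7% and 5.72% of all genes were called, also fewer than the 9.11% with all libraries. Without replicate 3 at 1% 84 members and 13% of all genes were called.

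Between 10% and 0.1% at 9 weeks the values that chose the members again enter the contrast, so an excess of higher members is built in. Here 0 of 197 members passed, as did 0% of 18808 genes, while 162 members had an unadjusted p under 0.05, all higher at 10%, against 9.3% of all genes that were higher and 11.2% that were lower. DESeq2 called 52 members, all higher at 10%, and 4.94% of all genes, and gave 92 of the 197 members no adjusted p. The median log2 difference was 3.04 in the first set and 3.78 in the second. Without replicate 1 at 10% that of the first set was 0.45, and without replicate 2 that of the second was -0.10. With all 5 libraries in place 0 members were free of overlap between the groups, against 2.32% of all genes. The 9-week 1% libraries stand in 3 of these comparisons and the 10% and 0.1% libraries in 2 each, so the results are not independent.

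**Figure D5:**
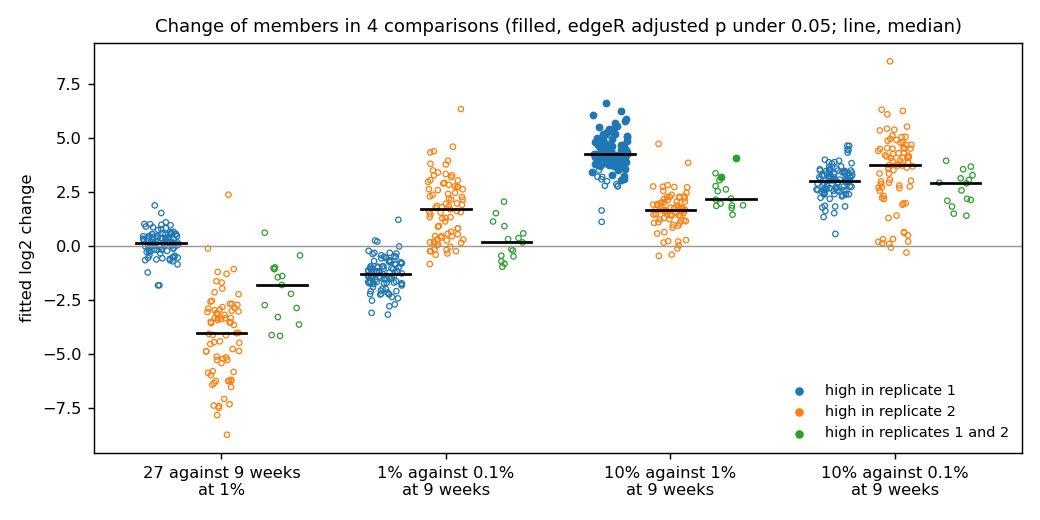
Fitted log2 change of each member (points) in 4 comparisons, by set, with filled points for an edgeR adjusted p under 0.05 and a line at the median. Filled points appear between 10% and 1% alone, nearly all in the set high in replicate 1, and the set high in replicate 2 has medians of -4.01 for 27 against 9 weeks and 1.75 for 1% against 0.1%.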

How the data were processed

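Skin RNA of 20 libraries was sequenced after preparation with a TruSeq RNA kit, per the labels' protocols. The submitters' processing notes name CASAVA 1.8.2, STAR 2.4.1d and, for counting, featureCounts 1.4.6-p4. Build, annotation and strand setting: not given in the sources used here. Per the values and the counting tool, the authors' deposited count tables, 2 in number, hold whole reads per gene that were not normalized, and the 0.1% libraries have 1 of them to themselves. RPKM values, reads scaled by gene length and library size, were also deposited by the authors. How their divisor was set could not be worked out, and they served only in an alternative choice of members. Sample titles gave the columns, and 10 count columns and 9 RPKM columns that match no sample here were not used. The members, sets and tests were chosen with earlier results of these data known.

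CPM, SDs and correlations were computed in Python 3.11.15. For tests, edgeR 4.0.16 was used in R 4.3.3 (TMM, filterByExpr, glmQLFit, glmQLFTest, 1 mean per group), two-sided. The comparisons of 10% with 1% and of 27 with 9 weeks used the 15 libraries of the first table, and those with 0.1% all 20. SEs came from the change and its F statistic. DESeq2 1.42.0 was an alternative, and an adjusted p it did not give was left out. Named members are the 2 of highest SD in each of the 2 largest sets. Other members are named where they were alone, few or an exception, after their values were seen. The fits and the rule were tested on simulated data. Replicates differed by more than sampling noise (chi-square per degree of freedom at least 32.6). Genes that overlap or are near copies may share reads.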

Additional observations from a re-analysis of the deposited data

Results flagged for a closer look

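In 12 of 40 groups of 5 values the highest library lay farther from the others than the limit of Dixon's test. That limit is passed by chance in about 1 in 20 groups of normal values. The flagged values were CPM and read shares without logs, and the groups shared libraries and genes. The 12 therefore cannot be set against that rate. Of these, 6 are at 10%, where the members were chosen for such libraries: the first set at 4.38% of reads in replicate 1 (other libraries at most 0.248%), the second at 1.55% in replicate 2 (at most 0.0318%), Nfu_g_1_003041 and Nfu_g_1_007235 at 558.9 and 548.03 CPM in replicate 1 (at most 38.9 and 13.7), and Nfu_g_1_015055 and Nfu_g_1_022789 at 2978 and 833.8 CPM in replicate 2 (at most 4.42 and 1.96).

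The other 6 lie in the other groups, whose values entered the choice only through the mean CPM and the limit that their SD be below that at 10%. At 0.1%, replicate 1 held the first set at 0.357% of reads (other libraries at most 0.131%) and Nfu_g_1_022789 at 12.51 CPM (at most 0.985). At 9 weeks and 1%, replicate 1 held the 15 members high in both libraries at 0.01996% of reads (at most 0.0052%), Nfu_g_1_015055 at 678.9 CPM (at most 29.03) and Nfu_g_1_022789 at 120.3 CPM (at most 9.83), and replicate 3 held Nfu_g_1_003041 at 6.91 CPM (at most 1.47). Total reads and the share of the 10 most abundant genes passed the limit in 0 groups.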

How the results depend on the processing

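No paired analysis was possible because the labels give no replicate numbers: the numbers only name libraries in order of deposit. Members called between 10% and 1% were 9 to 98 when 1 library was left out. The 9 went with 3.44% of all genes called and the 98 with 7.13%, while the highest share, 13%, went with 84. With DESeq2 they were 41 (14% of all genes, with no adjusted p for 120 of 191 members). They were 0 with the 10 libraries alone (2.59%) and 3 without replicates 1 and 2 at 10% (2.11%). Between 27 and 9 weeks they were 13 with DESeq2 (10.9%; 120 of 191 with no adjusted p) and 23 without those 2 libraries (5.57%). Between 1% and 0.1% they were 1 with DESeq2 (22.8%; 92 of 197 with no adjusted p), 1 with the 10 libraries alone (6.42%) and 12 without those 2 (19.1%), and between 10% and 0.1% 52 with DESeq2 (4.94%; 92 of 197 with no adjusted p). The cause of these shifts was not tested.

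Membership depended on the settings of the choice. Choosing again with a minimum mean of 5 CPM returned 140 of the 200, and with the deposited RPKM 159. With 0.1 or 5 in place of the added 1 it returned 154 or 171, and with library sizes scaled by TMM 197. Leaving out 1 library at 10% and choosing again returned 100 to 187 of the 200, the lowest without replicate 1. Leaving out 1 other library gave a median pair correlation of 0.59 to 0.79 in the first set, 0.57 to 0.86 in the second, 0.62 to 0.78 in the 15 high in both, -0.23 to 0.42 between the sets and 0.062 to 0.52 over all members. With the 10 libraries at 1% alone it was 0.60 in the first set, 0.90 in the second and -0.32 between them. Without replicates 1 and 4 at 0.1% it was 0.65 in the first set, -0.24 between the sets and 0.084 over all members, and with a pseudocount of 0.1 it was 0.76 in the second set.

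Between 10% and 1%, leaving out 1 library gave log2 changes of -5.33 to 6.47 for Nfu_g_1_015055 and -4.42 to 6.27 for Nfu_g_1_022789, and without replicates 1 and 2 at 10% they were -5.55 and -4.54. Between 1% and 0.1% the range was -1.08 to 0.016 for Nfu_g_1_007235 and -0.16 to 5.67 for Nfu_g_1_022789. Between 10% and 0.1% Nfu_g_1_022789 ran from -1.13 to 8.44, and was -1.25 without replicates 1 and 2 at 10%. Low levels of the second set at 27 weeks limit what its differences there can show.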
